A study of Mus musculus with 2 samples.

Results

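The genes described here belong to the coagulation and plasminogen system of wounded skin. They are F3, F10, F13a1, Plau, Plaur, Plat, Serpinb2, Thbd and Tfpi, 9 of the 24346 gene symbols listed for each library, chosen by name, with earlier results of these data known. All 9 had transcript in the WT library, from 7.04 to 472 FPKM (fragments counted on a gene, corrected for its transcript length and for the size of the library). The libraries were bulk mRNA from wounded dorsal skin of C57BL/6J mice, 1 library from WT pups and 1 from littermates without PU.1, labelled PU.1_KO and written PU.1-/- here. Pups were wounded at 1 day of age by a full-thickness incision of 1 cm, and tissue was taken 24 h later. The text deposited with the data calls these wounds excisional. How many pups went into a library is not given in the sources used here. PU.1 directs the development of myeloid and lymphoid blood cells, and pups that lack it have no macrophages, neutrophils, mast cells or T cells, so the comparison asks which wound transcripts go with inflammation.

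When a vessel is cut, tissue factor (F3) on cells outside the blood binds factor VII and activates factor X (F10), which makes thrombin. Thrombin turns fibrinogen into fibrin, and factor XIII (F13a1) cross-links the fibrin into a firm clot, while TFPI (Tfpi) and thrombomodulin (Thbd) hold the cascade back. The clot is later dissolved by plasmin, which urokinase (Plau) and tissue-type plasminogen activator (Plat) cut from plasminogen. The urokinase receptor (Plaur) holds urokinase at the cell surface, and PAI-2 (Serpinb2) inhibits both activators. In skin, keratinocytes use urokinase and its receptor as they move through the fibrin of the wound. Macrophages are a known source of factor XIII-A, and they also make factor X and urokinase receptor.

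PU.1 binds purine-rich DNA with a GGAA core. The start-site regions of the 3 genes that differed most between the libraries, F10, F13a1 and Plaur, are therefore shown, with every match to GAGGAA on either strand in capitals (a match on the other strand reads TTCCTC). Each is the 250 bases before a RefSeq start site, 5′ to 3′ along the gene, from GRCm38.p6. For Plaur this start site lies inside the gene span, which begins at 24460937. The Plaur region is thus not the 250 bases before that span. The F10 region is chr8:13037058-13037307 (+ strand), that of F13a1 is chr13:37050245-37050494 (− strand) and that of Plaur is chr7:24462233-24462482 (+ strand). F13a1 has another start site, and the 30 bases at chr13:37049181-37049210 (− strand), just after it, are shown with the longer match GAGGAAGT in capitals.
F10: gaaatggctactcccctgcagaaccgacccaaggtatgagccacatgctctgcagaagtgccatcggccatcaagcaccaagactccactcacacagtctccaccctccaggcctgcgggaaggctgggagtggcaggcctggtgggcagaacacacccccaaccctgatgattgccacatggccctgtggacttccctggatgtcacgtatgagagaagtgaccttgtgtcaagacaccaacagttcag
F13a1: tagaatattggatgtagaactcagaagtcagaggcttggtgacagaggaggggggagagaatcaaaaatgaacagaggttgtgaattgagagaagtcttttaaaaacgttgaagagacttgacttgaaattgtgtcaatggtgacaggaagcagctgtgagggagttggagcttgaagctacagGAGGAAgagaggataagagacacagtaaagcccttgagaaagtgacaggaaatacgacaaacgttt
F13a1, second start site: cgagtccttttGAGGAAGTacccagaggca
Plaur: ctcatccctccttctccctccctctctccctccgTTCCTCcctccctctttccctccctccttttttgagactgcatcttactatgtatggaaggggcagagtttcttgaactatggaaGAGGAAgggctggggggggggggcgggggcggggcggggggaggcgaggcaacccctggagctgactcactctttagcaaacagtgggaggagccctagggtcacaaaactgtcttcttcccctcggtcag

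RefSeq windows of 300 bases (250 before and 50 after the start) were found for 6 of the 9 genes, 9 windows in all, and there was none for Plau, Plat and Thbd. GAGGAA was present in 5 of the 9 windows, both of F13a1, both of Tfpi and that of Plaur, and in 28.3% of all 32851 windows of that length. By gene rather than by window, it was present for F13a1, Tfpi and Plaur of the 6, and for 31.3% of 27025 genes. GAGGAAGT, which contains GAGGAA, was present in 1 of the 9 windows, 15 bases after the second start of F13a1, and in 3.20% of all windows. The F10 window held neither. Neither did the windows of F3 and Serpinb2. The GGAA core alone was not searched for. It occurs in the F10 region shown, as does its other-strand form TTCC. A match describes the letters only, and no binding was measured.

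The FPKM values behave like whole reads in low genes. Among genes with 1 transcript, the size of a single read gave an implied depth of 1.38e+07 fragments for WT and 1.59e+07 for PU.1-/-, and 79.8% and 81.1% of the low values (0.5 to 5 reads) were whole within 0.1 read. The 312 and 293 genes that set these depths are among the 1137 and 1106 low values, so part of that share was fixed beforehand. Equal read numbers gave a WT value 1.15 times the PU.1-/- value. Spi1, the gene of PU.1, had 35.4 FPKM in WT against 1.45 FPKM in PU.1-/-. All 10 macrophage markers were at least 2-fold lower in PU.1-/-, and their sum went from 638 to 11.7 FPKM. Sums of endothelial, keratinocyte and fibroblast markers in PU.1-/- were 112%, 113% and 117% of WT, and that of skeletal muscle markers was 167% of WT. The libraries also differed in sex-linked genes (Eif2s3y at 38.5 and 0 FPKM, Xist at 0 and 9.48 FPKM), so sex and genotype cannot be told apart. With 1 library per genotype, no test between genotypes and no spread between animals can be given. Intervals given for ratios are exact binomial intervals at 95% and those for levels exact Poisson intervals, both on reads estimated from FPKM and the shortest linked transcript, and they cover counting error only.

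F10 and F13a1 were expressed in the WT wound and listed at 0 in the PU.1-/- wound. Plaur, Plat and Plau were lower, at 35.5%, 54.2% and 61.2% of their WT levels. F3, Tfpi, Thbd and Serpinb2 were between 0.974 and 1.06 times their WT levels. The limit for calling a gene lower or higher was a 2-fold ratio, with values below 0.1 FPKM raised to 0.1. By this rule 3 of the 9 genes were lower and none was higher, while 6.49% of the 16298 genes that reached 0.1 FPKM in either library were lower and 3.47% were higher. Among the 13237 genes of at least 1 FPKM, 4.45% were lower and 1.71% higher. At a ratio of at least 1.5, 5 of the 9 genes were lower, against 8.17% of genes of at least 1 FPKM. The log2 ratio, PU.1-/- over WT, had a median over the 9 of −0.71, against −0.01 over all genes of at least 0.1 FPKM. In bulk tissue, fewer cells of a type and less RNA per cell cannot be told apart.

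**Figure D1:**
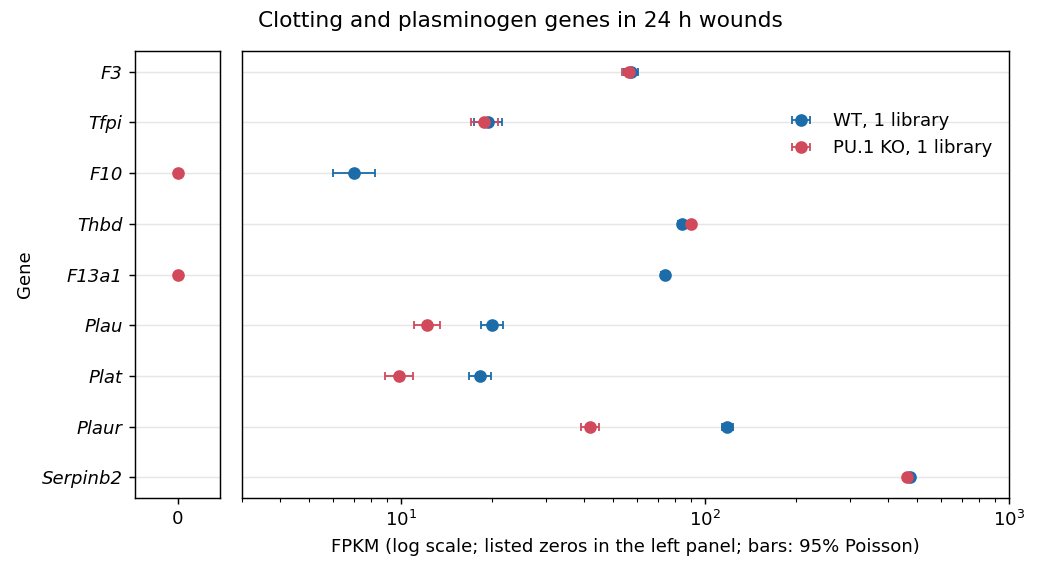
Level of each of the 9 genes in the WT (blue) and PU.1-/- (red) library, in FPKM on a log axis, with listed zeros in a panel of their own and exact Poisson intervals as bars. F10 and F13a1 are at 0 in PU.1-/-, Plau, Plat and Plaur lie to the left of their WT values, and the points of F3, Tfpi and Serpinb2 overlap.

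F13a1 encodes the catalytic A subunit of factor XIII, a transglutaminase, and lies on chromosome 13 of GRCm38 from 36867178 to 37050244. It had 73.9 FPKM in the WT wound (interval 71.6 to 76.4), from about 3726 reads, and was the fourth most abundant of the 9 there. In the PU.1-/- wound it was listed at 0. If the listed 0 is a true count, it allows up to 3 reads, which would be 0.0518 FPKM for this gene. Against this floor F13a1, at its WT value, was at least 1428-fold lower, and the exact binomial interval, which also holds the counting error of WT, puts the limit at 1160-fold. Its WT level was above that of F3. F13b, the gene of the carrier subunit, was listed at 0 in both libraries.

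F10 encodes factor X, the protease that makes thrombin, and lies on chromosome 8 from 13037308 to 13056676. It had 7.04 FPKM in the WT wound (6.01 to 8.20), the lowest level of the 9, from about 165 reads, and was listed at 0 in the PU.1-/- wound. The 3 reads that a true count of 0 allows would be 0.111 FPKM, against which F10, at its WT value, was at least 63.4-fold lower. The exact interval puts the limit at 50.8-fold. Its neighbours on chromosome 8 are F7, which ends 1498 bases before F10 starts, and Proz, which starts 3907 bases after F10 ends. F7, the factor that works with F3, had 0.614 FPKM in WT against 0.0382 FPKM in PU.1-/-, about 14 reads against 1. Without the floor of 0.1 FPKM this is a 16.1-fold difference with an interval from 2.45 to 680. With the floor the log2 ratio was −2.62. Proz, encoding protein Z, was below 0.1 FPKM in both. F7 and Proz were singled out after their values were seen. Of 169 genes of the ribosome, respiratory chain and proteasome with at least 10 FPKM in WT, 0 were listed at 0 in PU.1-/-. Among all 6939 genes of at least 10 FPKM in WT, short RNA genes left out, 41 were listed at 0 in PU.1-/-. F10, at 7.04 FPKM in WT, is below that cut. Whether the zeros of F10 and F13a1 are failed estimates was not tested.

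The macrophage markers were also lower in PU.1-/-. Of the 10, 5 were listed at 0 in PU.1-/- (Adgre1, C1qa, C1qb, C1qc and Fcgr1), and the most abundant, C1qb, went from 123 FPKM to 0. Of 9 mast cell markers, 8 were lower and 4 were listed at 0, with Tpsb2, the most abundant, at 224 and 0.788 FPKM. Of the platelet and megakaryocyte markers, 2 of the 6 with at least 0.1 FPKM were lower, Pf4 from 635 to 2.35 FPKM and Ppbp from 72.0 to 0.217 FPKM. The other 4 differed by less than 2-fold, Itga2b at 3.19 and 3.83 FPKM and Gp1bb at 5.25 and 4.99 FPKM among them. Megakaryocytes and platelets also carry factor XIII-A, which is why this list is given. The part of any of these cells in the difference was not tested.

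**Figure D2:**
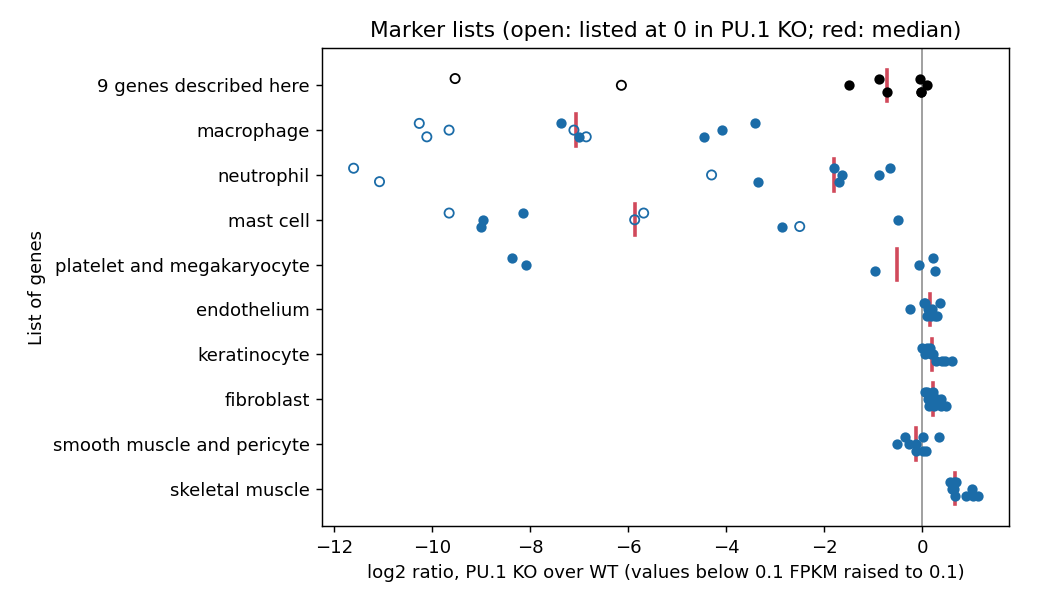
The log2 ratio (PU.1-/- over WT) of the 9 genes and of the markers of 9 cell types, each point 1 gene that reached 0.1 FPKM in either library and each red line a median. Open points are genes listed at 0 in PU.1-/-, whose place is set by the floor of 0.1 FPKM and is no measured ratio. F10 and F13a1 are open points, so their place follows from their WT level and the floor and is not compared with the markers. F3, Tfpi, Thbd and Serpinb2 lie near 0.

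Plaur, on chromosome 7 from 24460937 to 24475970, had 119 FPKM in WT (114 to 124) and 42.1 FPKM in PU.1-/- (39.3 to 45.0). It was 2.82-fold lower (interval 2.60 to 3.05), a log2 ratio of −1.50, and 3.44% of all genes of at least 1 FPKM had a ratio as low or lower. In WT it was the second most abundant of the 9, and in PU.1-/- the fourth. The receptor transcript thus kept 35.5% of its WT level in a wound in which the summed macrophage markers kept 1.84%. Of the 9 neutrophil markers listed, 7 were lower and 3 were listed at 0 in PU.1-/-, Ngp from 311 FPKM, Retnlg from 215 FPKM and Csf3r from 1.97 FPKM. Their sum kept 29.3% of WT, but it is mostly S100a8 (6600 and 2129 FPKM) and S100a9 (5311 and 1516 FPKM), which keratinocytes of wounds are also known to make. Camp, at 77.6 and 23.9 FPKM, and Elane, at 1.02 and 0.0887 FPKM, were also lower but not listed at 0. Cxcr2 (11.2 and 7.17 FPKM) and Mpo (0.185 and 0.0805 FPKM) were not lower by the 2-fold rule. Ngp, Retnlg, Csf3r, S100a9, Camp, Elane, Cxcr2 and Mpo were named after their values were seen. Whether the remaining Plaur transcript lies in skin cells or in remaining leukocytes was not tested.

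Plau and Plat encode the enzymes that cut plasminogen to plasmin. Plau, on chromosome 14 from 20836662 to 20843388, had 20.0 FPKM in WT (18.4 to 21.7) and 12.2 FPKM in PU.1-/- (11.1 to 13.5). The WT over PU.1-/- ratio was 1.63 (1.44 to 1.86), below the 2-fold limit. Plat, on chromosome 8 from 22757722 to 22782848, had 18.3 FPKM in WT (16.8 to 19.8) and 9.90 FPKM in PU.1-/- (8.91 to 10.97). The WT over PU.1-/- ratio was 1.84 (1.61 to 2.104), and its interval includes 2. Both activators were lower by a similar factor, and their intervals overlap. Of all genes of at least 1 FPKM, 6.45% had a PU.1-/- over WT ratio as low as that of Plau or lower. For Plat this share was 5.05%. Plg, the gene of plasminogen itself, which the liver makes, was listed at 0 in both libraries.

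**Figure D3:**
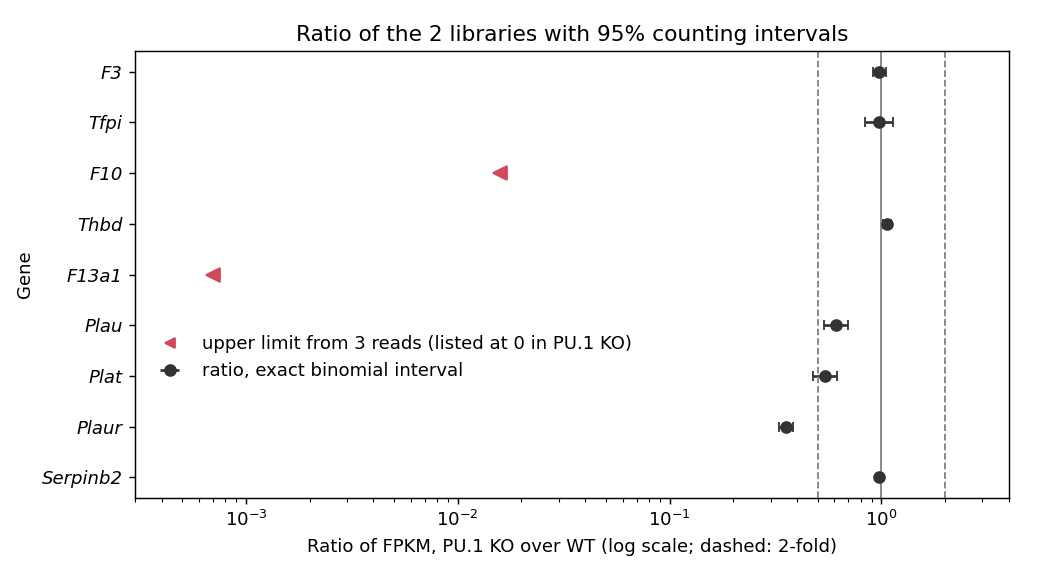
Ratio of FPKM, PU.1-/- over WT, on a log axis with exact binomial counting intervals at 95%, the full line at 1 and dashed lines at 2-fold. Plaur lies beyond the 2-fold line at 0.355, Plat (0.542) and Plau (0.612) lie between the lines, and triangles give the upper limits of F10 and F13a1 from 3 reads.

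Serpinb2, encoding PAI-2, was the most abundant of the 9 in both libraries and was at similar levels in them. It lies on chromosome 1 from 107500892 to 107525600 and had 472 FPKM in WT (464 to 481) and 462 FPKM in PU.1-/- (454 to 470). Its PU.1-/- over WT ratio was 0.979 with an interval from 0.956 to 1.005, from about 11523 and 12969 reads. It ranked 209 and 208 among the 24346 listed genes. Serpinb2 is known as a gene of both macrophages and keratinocytes. The keratinocyte markers had a median log2 ratio of 0.20, with Krt14, the most abundant, at 4659 and 5195 FPKM. The cell source of the Serpinb2 transcript was not tested.

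Since FPKM is corrected for gene length, levels of different genes can be set against each other within a library. Serpinb2 was 23.6 times the level of Plau in WT and 37.8 times in PU.1-/-, and it was 25.9 and 46.7 times that of Plat. Plau and Plat together summed to 38.2 FPKM in WT and to 22.1 FPKM in PU.1-/-, while Serpinb2 had 472 and 462 FPKM. The level of Plaur was 5.93 times that of Plau in WT and 3.44 times in PU.1-/-. Plau stood to Plat as 1.10 in WT and 1.24 in PU.1-/-. These are transcript levels, and no protein or plasmin activity was measured.

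**Figure D4:**
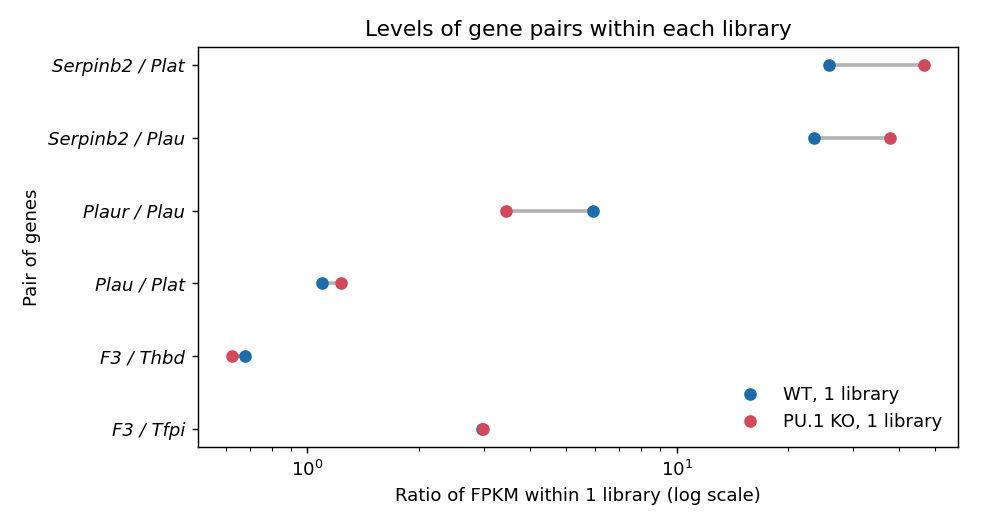
Ratio of the FPKM levels of gene pairs within the WT (blue) and the PU.1-/- (red) library, on a log axis. The pairs of Serpinb2 with an activator gene are further right in PU.1-/-, the pair Plaur over Plau is further left, and F3 over Tfpi lies at the same place.

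At the start of clotting, tissue factor and its inhibitor were at similar levels in both wounds. F3, on chromosome 3 from 121723537 to 121735052, encodes a membrane receptor and had 57.3 FPKM in WT (54.3 to 60.5) and 56.2 FPKM in PU.1-/- (53.4 to 59.1). Its ratio was 0.980 (0.911 to 1.06). Tfpi, on chromosome 2 from 84432855 to 84476775, had 19.4 FPKM in WT (17.4 to 21.5) and 18.9 FPKM in PU.1-/- (17.0 to 20.8), a ratio of 0.974 (0.840 to 1.13). The 3 linked transcripts of Tfpi are from 1492 to 3614 bases long, so that its WT value could stand for 345 to 911 reads. F3 was 2.96 times the level of Tfpi in WT and 2.98 times in PU.1-/-. These intervals leave room for a difference of up to about 1.19-fold in Tfpi and 1.10-fold in F3. Rescaling the libraries to the same FPKM sum turns the sign of the log2 ratios of F3, Tfpi and Serpinb2, so none of them is given a direction.

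Thbd encodes thrombomodulin, the receptor that turns thrombin toward activating protein C. It lies on chromosome 2 from 148404471 to 148408188 and had 84.5 FPKM in WT (81.9 to 87.1) and 89.9 FPKM in PU.1-/- (87.4 to 92.4). The PU.1-/- over WT ratio was 1.06 (1.02 to 1.11), far from the 2-fold limit. With the fewest whole reads that give the same ratio (464 and 567), the interval was 0.939 to 1.21 and includes 1. This pair is no estimate of the depth, and a smaller count widens an interval by construction. Thbd was the third most abundant of the 9 in WT and the second in PU.1-/-. Thrombomodulin is known from endothelium, whose markers had a median log2 ratio of 0.15, with Pecam1, the most abundant, at 65.3 and 78.7 FPKM. The cell source of the Thbd transcript was not tested. In level, the 9 genes of the WT wound ran from Serpinb2 through Plaur, Thbd, F13a1, F3, Plau, Tfpi and Plat to F10. The counting intervals of Plau, Tfpi and Plat overlap, so these neighbours are not set apart, and no other neighbours overlap. In PU.1-/- the order was Serpinb2, Thbd, F3, Plaur, Tfpi, Plau and Plat, with no overlap between neighbours.

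The other genes of the system came from 4 lists of 40 genes in all, every one of which was listed. Of these, 27 reached 0.1 FPKM in either library, 4 were lower by the 2-fold rule, 1 was higher, and 22 were neither, with a median log2 ratio of 0.07. The share of lower genes was 14.8%, against the 6.49% over all genes, and 3 of the 4 lower genes were below 1 FPKM in both libraries.

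Among 16 clotting factor genes, 10 reached 0.1 FPKM, and 3 of them were lower and 1 higher. Fgg, the fibrinogen gamma chain, had 2.03 FPKM in WT against 0.765 FPKM in PU.1-/-, a 2.66-fold difference (1.51 to 4.95) from about 42 and 18 reads. Fga, the alpha chain, had 11.9 and 14.5 FPKM and did not follow it. F5 (0.339 and 0.0520 FPKM) and F7 were the other lower genes, named after their values were seen. Vwf, which tethers platelets to the vessel wall, had 2.82 FPKM in WT against 5.90 FPKM in PU.1-/-, 2.09-fold higher (1.84 to 2.38), while none of the 10 endothelial markers differed by 2-fold. Vkorc1, an enzyme of vitamin K recycling, had 45.6 and 41.7 FPKM. Of 8 liver markers, the highest was Alb at 1.10 and 0.719 FPKM, so that little transcript of the tissue that makes most plasma factors was present.

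Of 4 genes of the thrombin receptor family, 1 was lower, F2rl3, at 0.232 and 0.0404 FPKM, named after its value was seen. The interval of its WT over PU.1-/- ratio, without the floor, was from 0.643 to 272 and includes 1. F2r, the main thrombin receptor outside platelets, had 15.7 FPKM in WT against 19.8 FPKM in PU.1-/-. F2rl1, the gene of PAR2, a family member but not itself a receptor of thrombin, had 16.7 and 19.3 FPKM. Of 9 anticoagulant genes, 5 reached 0.1 FPKM and none was lower or higher. Procr, the endothelial receptor of protein C, had 41.3 FPKM in WT against 31.5 FPKM in PU.1-/-. Pros1, encoding protein S, had 45.2 and 55.2 FPKM, and Tfpi2 had 22.8 and 24.1 FPKM.

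Of 11 genes for plasminogen, its receptors and inhibitors, 8 reached 0.1 FPKM and none was lower or higher. Serpine2, encoding protease nexin 1, had 41.5 and 61.5 FPKM, 1.48 times as much in PU.1-/-. Plgrkt, a plasminogen receptor, had 28.3 and 18.03 FPKM, a ratio of 1.57 (1.32 to 1.86) and the nearest of this list to that of Plau. Anxa2 (1534 and 1382 FPKM) and S100a10 (919 and 724 FPKM), which form a complex that binds plasminogen and Plat, were the most abundant genes of the 4 lists. Lrp1, which clears activator bound to its inhibitor, had 36.3 and 36.7 FPKM, and Serpinb8 had 17.3 and 18.2 FPKM.

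**Figure D5:**
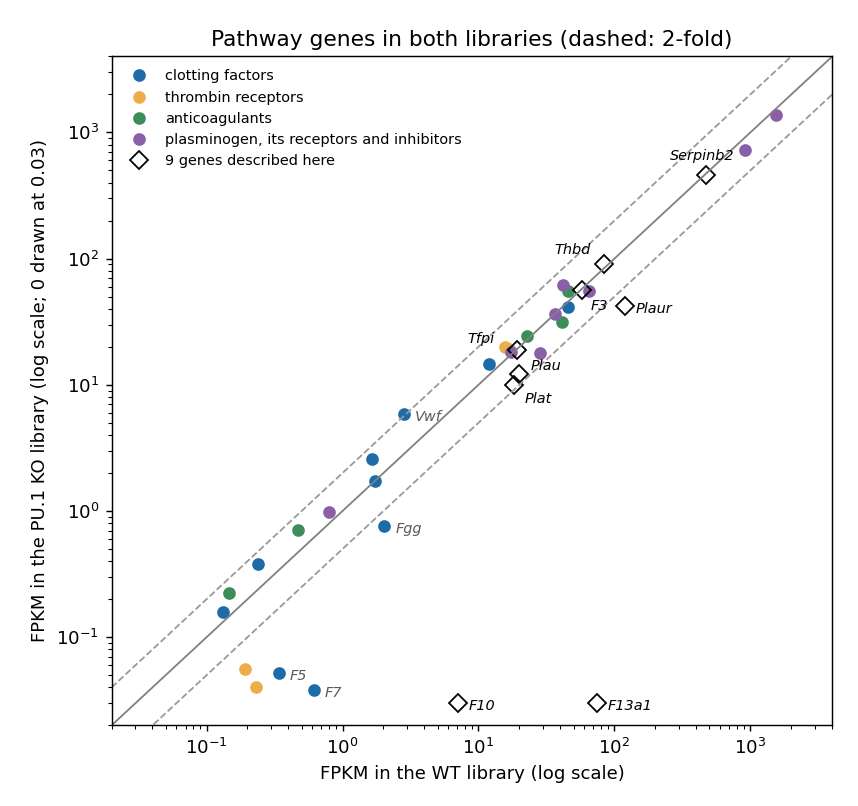
FPKM in the PU.1-/- library against FPKM in the WT library, on log axes, for the 27 other genes of the system with at least 0.1 FPKM (filled, by list) and the 9 genes described here (diamonds), with the line of equality and 2-fold lines. Values of 0 are drawn at 0.03 FPKM and values between 0 and 0.1 at their own place, although they were raised to 0.1 for the count. Most genes above 10 FPKM lie between the 2-fold lines, with Plaur and F13a1 below them.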

How the data were processed

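The authors prepared stranded mRNA libraries (TruSeq), sequenced them on a DNBSEQ-G400RS instrument as single-end reads, mapped them to mm10 and deposited FPKM values per gene symbol for each library. Cuffnorm is named in the methods, and the submitters' processing notes list TopHat2 2.1.1, Bowtie2 2.2.8, SAMtools 0.1.18 and Cuffdiff 2.2.1. The annotation is not given in the sources used here. FPKM estimates can be 0 by a failed estimate, and reads shared by similar genes may be split. Groups were taken from the sample labels, 1 library each.

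From these values, ratios were computed after raising FPKM below 0.1 to 0.1, and a gene was counted at a ratio of at least 2. Reads were estimated from FPKM, the implied depth and GENCODE M21 transcript lengths less 200 bases. Gene coordinates are those of RefSeq on GRCm38. Exact intervals (95%) came from scipy 1.17.1, with Python 3.11.15, pandas 2.3.3 and numpy 2.4.6, and figures from matplotlib 3.10.9. The steps were tested on simulated data.

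The 9 genes and all lists were chosen with earlier results of these data known. Named besides the 9 were Spi1, list genes of at least 10 FPKM or changed at least 2-fold at 1 FPKM or more, and the highest WT gene of each marker list (Col3a1, 1042 and 1110 FPKM, Mcam, 71.0 and 65.5 FPKM, and Acta1, 3224 and 5955 FPKM, are those not named in the report). Of the genes this rule names, 1 is not reported here, though the list counts include it. Others were named after their values were seen. With 2 libraries, no gene was named for likeness of pattern.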

Additional observations from a re-analysis of the deposited data

How the results depend on the processing

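F10, F13a1 and Plaur remained at least 2-fold lower in every scaling, floor and pseudocount that gave them a value (7 settings, and for Plaur also the smallest whole-read pair, with a log2 ratio of −1.50 to −1.44), and Plat (−0.89 to −0.82) and Plau (−0.71 to −0.65) stayed short of it. The signs of F3, Serpinb2 and Tfpi turned in 2 of 8 settings, those that scale by the FPKM sum. The count of lower genes among the 9 was 5 at 1.5-fold, 2 at 3-fold (without Plaur) and 2 for genes of at least 10 FPKM (without F10). Among all genes, 1057 were lower and 565 higher. These became 463 and 164 with a floor of 1 FPKM, 461 and 89 with a pseudocount of 1, 589 and 226 for genes of at least 1 FPKM, 209 and 64 at 10 FPKM, 1867 and 1410 at 1.5-fold, and 681 and 150 at 3-fold. Among the 40 other genes of the system, 4 lower genes became 1 with a floor of 1 FPKM, 0 with a pseudocount of 1, 1 at 1 FPKM, 0 at 10 FPKM and 2 at 3-fold, and 1 higher gene became 0 with the pseudocount, at 10 FPKM and at 3-fold, and 5 at 1.5-fold. The floor and filters act on genes of low level by construction. The deposited values were also read as the smallest whole-read pair that gives the same ratio. The intervals of Plau (0.356 to 1.04, 37 and 26 reads) and Thbd (0.939 to 1.21, 464 and 567 reads) then widened to include 1. Both intervals rest on the estimated depth, and a smaller count widens an interval by construction. The pairs were sought gene by gene and do not share 1 depth. In WT, Plau has 37 reads by its pair against about 591 estimated, and Plaur 1355 against 2136. The pairs are therefore no estimate of the depth. No paired analysis was possible because each genotype has 1 library, and no replicate could be left out.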
